A study of Homo sapiens with 12 samples.

Results

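The subject is the direct comparison of 2 perfluoroalkyl acids that differ in the length of their carbon chain, perfluorohexanoic acid (PFHxA) and the shorter perfluorobutanoic acid (PFBA). The rule took the 4 libraries exposed to PFHxA and the 4 exposed to PFBA, which are 8 of the 12 libraries of the study, and compared them over all expressed genes. The cells were RPMI2650, a human epithelial line that came from a nasal septum tumour, kept at an air-liquid interface, where their upper surface faces air. Each acid was given at 1 µM for 7 days, so that dose and time are matched in the 1 pair of compounds compared here. The other 4 libraries are controls with no exposure, no culture time and no vehicle named in their labels. They served to place the levels seen with the acids, and each acid was also tested against them. They also entered the fit of all 12 libraries, through the gene filter, the scaling and the estimate of spread. Nothing in the labels says that the 4 libraries of a group came from separate cultures, so that p-values measure the spread between libraries, which may be technical. The table's columns begin with BA, HA and Ck, which were read as PFBA, PFHxA and control, and libraries carry the columns' letters a to d, which are not tied to the replicate numbers of the labels.

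Perfluoroalkyl carboxylic acids resemble fatty acids in which fluorine has replaced the hydrogen of the carbon chain. They resist breakdown, bind albumin and fatty acid binding proteins, and longer members are known in liver as ligands of PPARA, the nuclear receptor that turns on fatty acid oxidation. PFBA and PFHxA are both counted among the short-chain acids, and the nasal epithelium is a surface that inhaled compounds meet first.

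Expression separated the acids widely but by small amounts. Of 16554 genes tested, 1806 differed at an adjusted p under 0.05 (edgeR's quasi-likelihood test, with p-values adjusted by Benjamini-Hochberg across the tested genes, as for every adjusted p of a gene below), which is 10.9% of the genes. With PFHxA, 636 genes (3.84%) were higher than with PFBA and 1170 (7.07%) were lower. The median size of a called change was 1.197-fold, with a median of 1.16-fold for the higher and 1.23-fold for the lower genes. At least 1.5-fold was reached by 12 higher and 80 lower genes, and at least 2-fold by 3 higher and 14 lower ones. The 4 and 4 libraries did not overlap in 602 of the higher and 1091 of the lower genes, and they overlapped in the other 113. Over all tested genes, 9.24% had the PFHxA libraries all above and 10.8% all below the PFBA libraries. No gene passed a test for a change of more than 1.5-fold (edgeR, adjusted p under 0.05), and 66 did at an unadjusted p under 0.05. Genes named below beyond those fixed by rule, among them MKI67, DAG1, FOXA2 and further members of the lists, were chosen after their values were seen.

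Totals ran from 18051645 to 21879105 counts over the 8 libraries and did not separate the acids (exact permutation p = 0.2, two-sided). The libraries did separate by base composition. In each library the log2 level of a gene, relative to its mean over all 12 libraries, was fitted jointly against GC content and log2 length. Both were those of the gene's longest transcript. The slope over GC content, in log2 units per 10 percentage points, was -0.0650, 0.00417, -0.0508 and -0.0637 in PFBA a to d. It was 0.0706, 0.104, 0.0829 and 0.0794 in PFHxA a to d. All PFHxA libraries lay above all PFBA libraries (exact permutation p = 0.0286, two-sided, the smallest that 4 against 4 can give; 0.0714 after Benjamini-Hochberg adjustment over 5 library measures). In the controls it was -0.0405 ± 0.0238 (SD, n = 4), at the level of PFBA. The share of counts from mitochondrial genes was 11.4% ± 0.239 with PFBA and 12.6% ± 0.575 with PFHxA (SD, n = 4; exact permutation p = 0.0286, adjusted p = 0.0714), again without overlap. By its GC slope, PFBA b lay about as far from the other PFBA libraries as from PFHxA a. Since the slope separates the groups, a difference between the acids and one between the preparation of their libraries cannot be told apart here. Values are therefore also given, for the lists and for most genes described, after each library's trend with GC content and length of the transcript had been taken out. A call lost in that fit can go with a fold change that stayed about as large.

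**Figure D1:**
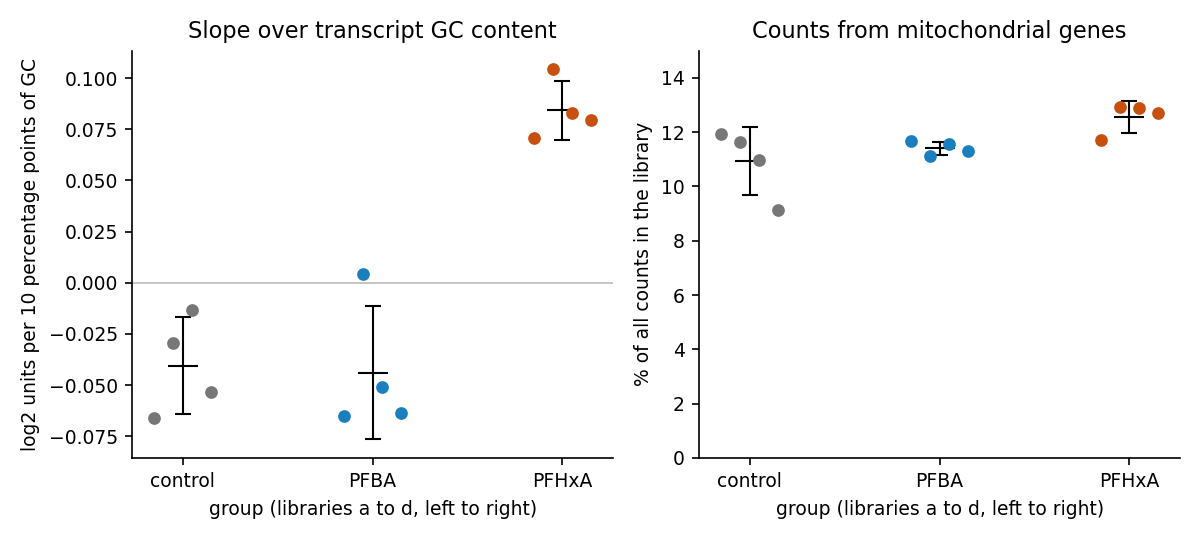
Slope of log2 expression over transcript GC content (left, log2 units per 10 percentage points) and share of counts from mitochondrial genes (right, %) in each of the 12 libraries; points are libraries and bars give the mean ± SD of 4. The 4 PFHxA libraries have slopes from 0.0706 to 0.104, above the highest PFBA library at 0.00417.

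The called genes followed GC content. Genes lower with PFHxA had a median transcript GC content of 38.9%, genes higher with PFHxA 58.4%, and genes that were not called 49.0%. In the same order, their median levels were 51.0, 81.1 and 14.9 CPM (counts scaled to the size of the library). Of 292 genes under 35% GC, 32.9% were lower with PFHxA and none was higher, whereas of 1782 genes between 60 and 65% GC 10.6% were higher and 0.168% lower. With the trend removed, 146 genes (0.882%) were called, 37 of them higher (0.224%) and 109 lower (0.658%) with PFHxA. Of these, 125 were called in the same direction in both fits, 17 higher and 108 lower. The 1681 genes that were no longer called had a median absolute log2 fold change of 0.25 before and 0.11 after removal, while their median SE went from 0.0565 to 0.0506. The direction stayed the same in 1596 of them. The number called with the trend removed was itself unstable, from 15 without PFHxA c to 342 without PFHxA a. It was 24 without PFHxA d, 40 without PFHxA b, 40, 42, 45 and 77 without PFBA a, b, c and d, and 92 and 90 without control b and c.

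**Figure D2:**
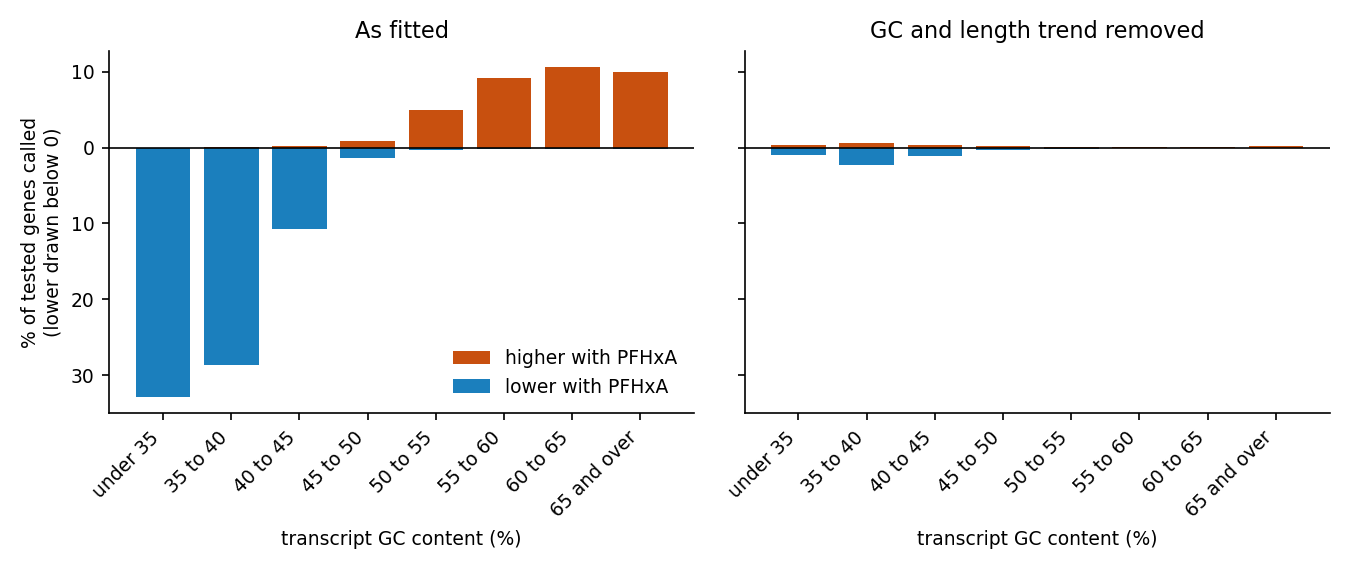
Share of tested genes called higher (above 0) or lower (below 0) with PFHxA than with PFBA, in %, by transcript GC content, as fitted (left) and with the GC and length trend removed (right). As fitted, 32.9% of genes under 35% GC are lower and 10.6% of genes at 60 to 65% GC are higher.

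Of the 44 gene lists examined, the one of centrosome genes had the largest share of members lower with PFHxA. Counts of list members here and below stand beside 7.07% lower and 3.84% higher over all tested genes. With the trend removed these shares were 0.658% and 0.224%. Of 36 tested genes of the centrosome and centriole, 19 were lower with PFHxA and none was higher, against 7.07% lower over all genes. The median transcript GC content of the list was 40.9%. Of all tested genes at 35 to 40% GC 28.6% were lower, and at 40 to 45% GC 10.7%. The list's median log2 fold change was -0.28, beside 0.01 over all tested genes, and -0.11 with the trend removed. AKAP9 (chromosome 7, 91940867 to 92110673, GRCh38), a scaffold that anchors protein kinase A and microtubule nucleation at the centrosome and Golgi, stood at 161, 149, 149.8 and 144 CPM (counts scaled to the size of the library) in PFBA a to d. It stood at 112, 63.2, 70.004 and 70.9 CPM in PFHxA a to d. The groups did not overlap, and PFHxA a lay between the PFBA libraries and the other PFHxA libraries (log2 fold change -0.93, SE 0.16, adjusted p = 0.0052). CEP290 (chromosome 12, 88049014 to 88142216), a gatekeeper of the base of cilia, was at 44.6, 38.95, 39.6 and 41.5 CPM with PFBA and at 29.99, 18.02, 21.9 and 20.6 CPM with PFHxA (log2 fold change -0.87, SE 0.12, adjusted p = 0.00185). PFHxA a was again the highest of its group.

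With the trend removed 7 of the 36 were called lower. AKAP9 and CEP290 were among them, AKAP9 at -0.77, adjusted p = 0.0316, and CEP290 at -0.65, adjusted p = 0.0139. The others were CEP162 (-0.73 before, -0.53 after removal), CEP112 (-0.63, -0.49), CNTRL (-0.50, -0.41), PCM1 (-0.45, -0.31) and CEP350 (-0.37, -0.27). PCM1 organises the satellites that carry proteins to the centrosome, and CNTRL is part of the mother centriole. Over all tested genes 0.658% were called lower with the trend removed. The list as fitted had 15 to 20 lower members when each library was left out in turn. The 7 calls with the trend removed were not followed in this way. Over all genes, calls with the trend removed ran from 15 to 342 with single libraries left out.

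Among genes of mitosis and the spindle, 21 of 54 were lower with PFHxA and 1 was higher, against 7.07% and 3.84% of all genes. The median of the list was -0.12, and -0.01 with the trend removed. CENPE (chromosome 4, 103105806 to 103198409), a kinesin that links chromosomes to spindle microtubules, was at 39.4, 34.2, 33.6 and 33.03 CPM with PFBA and at 26.3, 14.9, 14.2 and 15.1 CPM with PFHxA (log2 fold change -0.99, SE 0.18, adjusted p = 0.00614). PFHxA b, c and d lay close together, PFHxA a lay above them, and no PFHxA library reached the PFBA range. KIF20B, a kinesin needed for cytokinesis, fell from 87.8 ± 3.82 to 47.9 ± 12.4 CPM (SD, n = 4; log2 fold change -0.88, SE 0.14, adjusted p = 0.00364). SMC2, a core subunit of the condensin complexes that compact chromosomes, was at 69.9, 62.6, 66.4 and 66.7 CPM with PFBA and 51.5, 43.4, 44.02 and 46.8 CPM with PFHxA (log2 fold change -0.52, SE 0.06, adjusted p = 0.00116). All PFHxA libraries were below all PFBA libraries for SMC2. In bulk RNA a smaller share of dividing cells and less of these transcripts in each cell cannot be told apart.

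With the trend removed, 7 of the 54 mitosis genes were lower, against 0.658% of all genes, and none was higher. They were CENPE (-0.77, adjusted p = 0.048), KIF20B (-0.64, adjusted p = 0.0355), KIF18A (-0.50, adjusted p = 0.023), CENPF (-0.42, adjusted p = 0.0372), ASPM (-0.35, adjusted p = 0.0243), SMC2 (-0.32, adjusted p = 0.0139) and KIF15 (-0.24, adjusted p = 0.0398). KIF18A shortens spindle microtubules, KIF15 helps to hold the spindle bipolar, ASPM focuses spindle poles and CENPF sits at the kinetochore. These 7 trend-removed calls, too, were not followed with single libraries left out. The 1 higher member was BIRC5 (survivin, of the chromosomal passenger complex), at 19.9, 18.3, 20.2 and 17.5 CPM with PFBA and 21.7, 24.99, 22.8 and 29.7 CPM with PFHxA (log2 fold change 0.38, SE 0.10, adjusted p = 0.0238; trend removed 0.32, adjusted p = 0.159), and its call was lost without PFBA d, PFHxA b or PFHxA d (adjusted p up to 0.0739). HMMR, a spindle protein and hyaluronan receptor, fell (log2 fold change -0.47, SE 0.09, adjusted p = 0.00477) but not with the trend removed (-0.24, adjusted p = 0.155). The proliferation marker MKI67 was not called and split its libraries: it was at 206, 65.01, 160.0 and 67.6 CPM in PFBA a to d and at 253, 77.3, 76.04 and 83.9 CPM in PFHxA a to d.

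Of 50 tested DNA replication genes, 6 were higher and 2 lower with PFHxA, against 3.84% and 7.07% of all genes. None kept its call after trend removal. The higher ones were E2F1, a transcription factor of S-phase entry (log2 fold change 0.22, SE 0.05, adjusted p = 0.00905; trend removed 0.11, adjusted p = 0.277), the leading-strand polymerase POLE (log2 fold change 0.25, SE 0.06, adjusted p = 0.0114; trend removed 0.14, adjusted p = 0.165), POLD1, LIG1, DNMT1 and MCM2, with log2 fold changes of 0.23, 0.24, 0.20 and 0.18 for the last 4. The lower ones were RFC1, the large subunit of the clamp loader (log2 fold change -0.33, SE 0.05, adjusted p = 0.00242; trend removed -0.22, adjusted p = 0.0591), and ORC3 (-0.34). MCM2, a subunit of the replicative helicase, lost its call without PFHxA b (adjusted p = 0.0542).

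**Figure D3:**
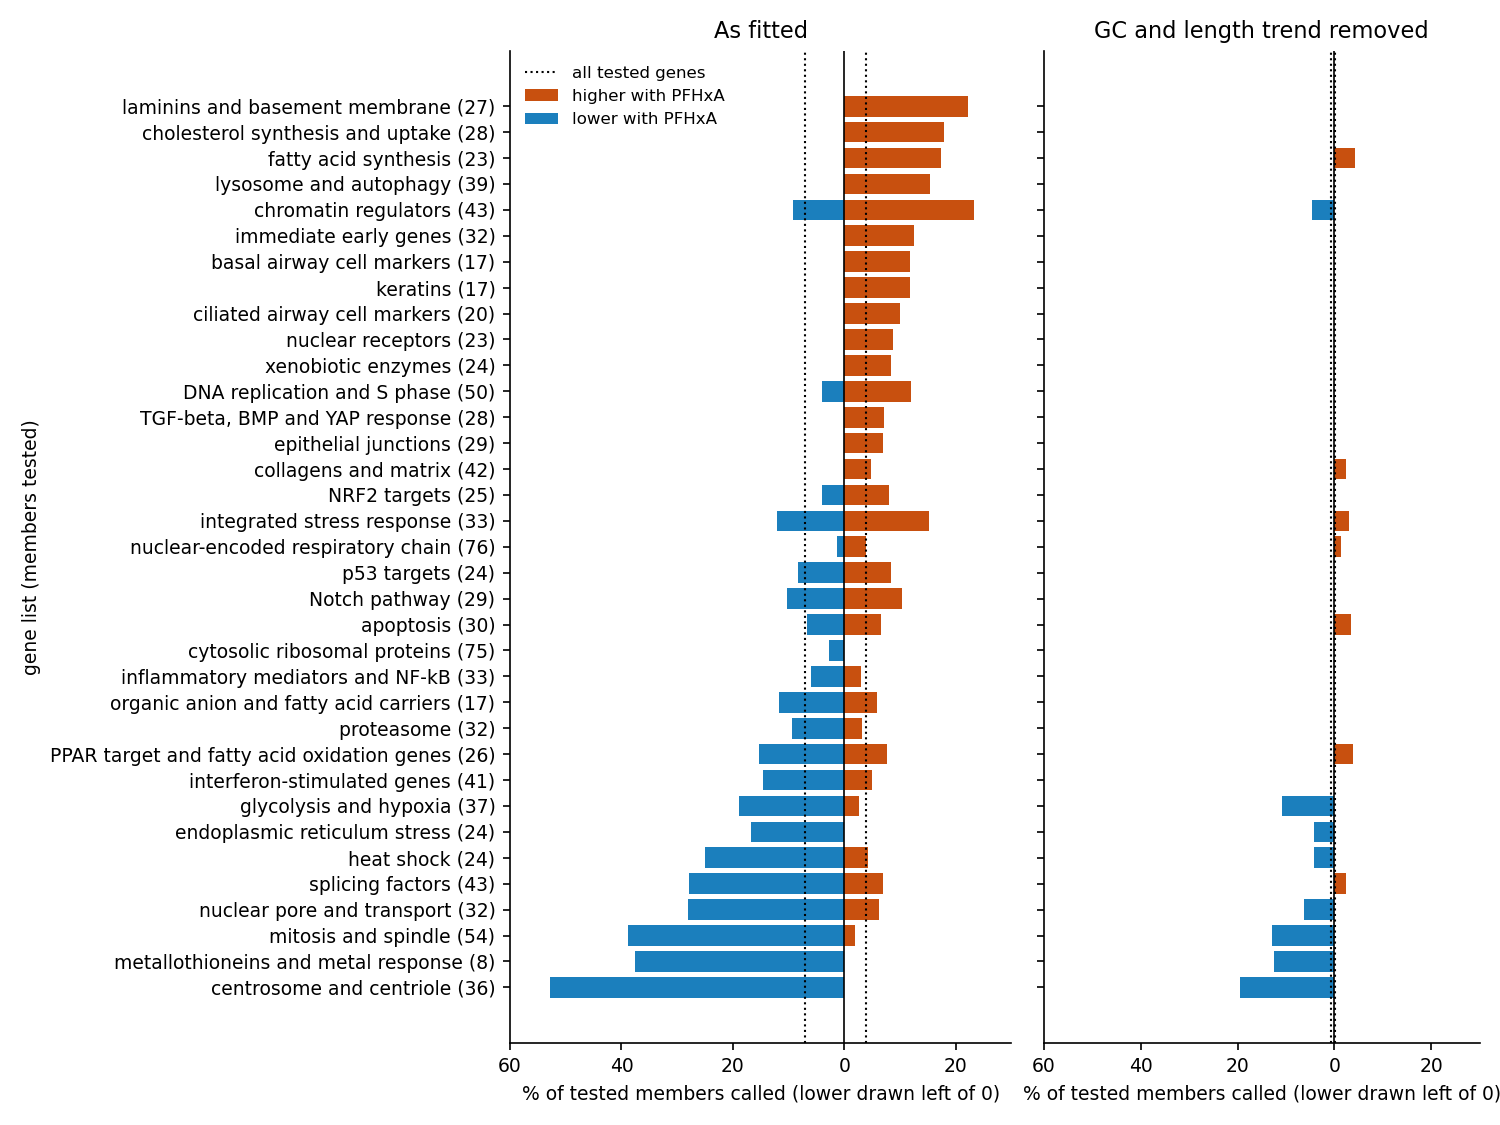
Share of tested members called higher (right of 0) or lower (left of 0) with PFHxA than with PFBA, in %, for each gene list with at least 2 calls, as fitted (left) and with the GC and length trend removed (right); dotted lines mark the share over all tested genes. The list of centrosome and centriole genes has 19 of 36 members lower, and 7 with the trend removed.

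Outside these lists, the largest falls included genes of several kinds. OMD (osteomodulin, a small proteoglycan of mineralised tissue, whose gene lies inside CENPP) was low with both acids, at 1.503, 1.19, 1.59 and 1.53 CPM with PFBA and 0.7102, 0.475, 0.503 and 0.593 CPM with PFHxA (log2 fold change -1.34, SE 0.21, adjusted p = 0.00268), and kept its call after trend removal (-1.05, adjusted p = 0.0355). ESF1, a factor of ribosomal RNA processing, fell from 53.3 ± 2.66 to 28.9 ± 6.59 CPM (log2 fold change -0.88, SE 0.12, adjusted p = 0.00189; trend removed -0.64, adjusted p = 0.0177). The zinc finger gene ZNF17 was at 8.61, 10.7, 9.92 and 9.91 CPM with PFBA and 6.01, 3.65, 3.69 and 6.97 CPM with PFHxA (log2 fold change -0.94, SE 0.19, adjusted p = 0.00859), and lost its call after trend removal (-0.85, adjusted p = 0.0591). HOOK1, an adaptor of dynein, was lower (log2 fold change -0.99, SE 0.30, adjusted p = 0.0471; trend removed -0.77, adjusted p = 0.272), and its call was lost without PFBA a, PFBA d, control a, control c, PFHxA a, PFHxA b, PFHxA c or PFHxA d (adjusted p up to 0.145).

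In 2 of the largest falls a single PFBA library lay close to the PFHxA libraries. FRS2, the adaptor that carries the FGF receptor signal to RAS and MAPK (chromosome 12, 69470349 to 69579789), was at 56.7, 55.5, 57.1 and 22.6 CPM in PFBA a to d and at 20.4, 18.9, 20.7 and 19.2 CPM in PFHxA a to d (log2 fold change -1.28, SE 0.24, adjusted p = 0.0094; trend removed -1.08, adjusted p = 0.0826). After trend removal it was not called and the groups overlapped. The controls held 56.6 ± 1.197 CPM (SD, n = 4), which is the level of PFBA a, b and c. RPL36A-HNRNPH2, a readthrough of a ribosomal protein gene into a neighbour with which it shares reads, was at 27.1, 10.1, 27.4 and 25.9 CPM with PFBA and at 9.61, 6.82, 8.101 and 8.65 CPM with PFHxA (log2 fold change -1.45, SE 0.27, adjusted p = 0.0072; trend removed -1.44, adjusted p = 0.0243). Here the controls, at 10.2 ± 0.538 CPM, lay close to PFBA b and to the PFHxA libraries. Counts of such overlapping genes depend on how shared reads were assigned.

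The rises were smaller and fewer. NDST1, which adds sulfate to the nitrogen of heparan sulfate chains (chromosome 5, 150485818 to 150558211), had the largest in a ranking restricted by rule. That ranking took called genes without overlap, of at least 1 CPM on average, whose symbols name a characterised gene. Among all genes called higher, 3 reached 2-fold. NDST1 was at 62.5, 66.6, 62.2 and 52.3 CPM in PFBA a to d and 70.3, 145, 137 and 146 CPM in PFHxA a to d (log2 fold change 1.03, SE 0.28, adjusted p = 0.0416; trend removed 0.92, adjusted p = 0.196). PFHxA a was close to the PFBA libraries, control d was high at 113 CPM, and the call was lost without PFBA a, PFBA b, PFBA c, PFBA d, control b, PFHxA b, PFHxA c or PFHxA d (adjusted p up to 0.112). CASP2, an initiator caspase that answers to extra centrosomes and DNA damage (chromosome 7, 143288215 to 143307696), was at 27.7, 15.9, 16.95 and 13.8 CPM with PFBA and 29.3, 37.8, 33.02 and 38.3 CPM with PFHxA (log2 fold change 0.89, SE 0.20, adjusted p = 0.0153), and kept its call after trend removal (0.96, adjusted p = 0.0485). PFBA a stood apart from the other PFBA libraries, and the controls, at 29.3 ± 3.86 CPM, lay nearer to PFHxA. WRNIP1, which protects stalled replication forks, rose from 88.1 ± 2.94 to 126 ± 12.8 CPM (log2 fold change 0.52, SE 0.11, adjusted p = 0.011), and CLPTM1, a membrane protein of the endoplasmic reticulum, from 109 ± 7.85 to 156 ± 22.8 CPM (log2 fold change 0.52, SE 0.10, adjusted p = 0.0089). After trend removal they stood at 0.47 and 0.43, and missed the threshold (adjusted p = 0.0705 and 0.0891).

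Among the other large rises, LY6G5C (log2 fold change 0.84, SE 0.17, adjusted p = 0.00862; trend removed 0.79, adjusted p = 0.0534) and DMWD (log2 fold change 0.53, SE 0.12, adjusted p = 0.0141; trend removed 0.40, adjusted p = 0.17) kept their calls when each library was left out in turn, but neither was called with the trend removed. LTB4R2, a leukotriene B4 receptor whose gene overlaps that of LTB4R (log2 fold change 0.58, SE 0.17, adjusted p = 0.0387; trend removed 0.48, adjusted p = 0.203), was called only while PFBA a, PFBA c, PFBA d, control c and PFHxA b to d were all present (adjusted p up to 0.107). B4GALT7, which builds the linker of glycosaminoglycans (log2 fold change 0.47, SE 0.13, adjusted p = 0.0324; trend removed 0.37, adjusted p = 0.21), lost its call without PFBA c, PFBA d, PFHxA a, PFHxA b, PFHxA c or PFHxA d (adjusted p up to 0.0918). ZBTB11-AS1 (log2 fold change 0.54, SE 0.15, adjusted p = 0.0342; trend removed 0.48, adjusted p = 0.157) lost it without PFBA a, PFBA b, PFBA c, PFHxA b, PFHxA c or PFHxA d (adjusted p up to 0.0946). It is an antisense gene, and the strand setting of the counting is not given in the sources used here.

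Apart from CASP2, the rises named by rule that were also called with the trend removed were small. HM13, the signal peptide peptidase of the endoplasmic reticulum, was at 106, 94.1, 98.3 and 93.5 CPM with PFBA and 133, 119, 113 and 127 CPM with PFHxA, with no overlap (log2 fold change 0.33, SE 0.06, adjusted p = 0.00387; trend removed 0.29, adjusted p = 0.0454). RBFA, a mitochondrial ribosome assembly factor, rose by 0.30 in log2 (0.31 with the trend removed, adjusted p = 0.0485), and without PFBA a its adjusted p was 0.0515. PCDHGA8, a clustered protocadherin whose last exons are shared with its neighbours, rose by 0.30 (0.38, adjusted p = 0.0355), and lost its call without PFBA a, PFBA d or PFHxA b (adjusted p up to 0.0545). FAM122B rose by 0.21 (0.29, adjusted p = 0.0439) and lost its call without PFBA a, PFBA c, PFBA d, control b, control c, PFHxA a, PFHxA b, PFHxA c or PFHxA d (adjusted p up to 0.119).

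Among genes of glycolysis and the response to low oxygen, SLC2A1, BNIP3 and LDHB were lower with PFHxA both as fitted and with the trend removed. Of 37 tested members, 7 were lower (SLC2A1, BNIP3, PDK1, LDHB, HIF1A, P4HA1 and EGLN1) and 1 was higher, against 7.07% and 3.84% of all genes. The higher one was the aldolase ALDOA (log2 fold change 0.18, SE 0.05, adjusted p = 0.021; trend removed 0.11, adjusted p = 0.256; call lost without PFBA d, PFHxA c or PFHxA d, adjusted p up to 0.0648). SLC2A1, the glucose transporter GLUT1 (chromosome 1, 42925375 to 42959173), was at 108, 113, 108 and 105 CPM in PFBA a to d and 80.5, 78.2, 72.9 and 68.4 CPM in PFHxA a to d (log2 fold change -0.53, SE 0.09, adjusted p = 0.00372). Its transcript is 54.8% GC, and with the trend removed the difference was larger (-0.62, adjusted p = 0.0103). BNIP3, a mitophagy receptor induced by low oxygen (chromosome 10, 131966455 to 131982013), was at 61.95, 67.01, 67.7 and 70.7 CPM with PFBA and 48.9, 49.4, 51.7 and 49.3 CPM with PFHxA (log2 fold change -0.42, SE 0.07, adjusted p = 0.00387; trend removed -0.48, adjusted p = 0.0139). No library of one acid reached the range of the other in either gene. LDHB, a lactate dehydrogenase subunit, fell from 1377 ± 64.3 to 1079 ± 95.4 CPM (log2 fold change -0.35, SE 0.07, adjusted p = 0.00944; trend removed -0.31, adjusted p = 0.0454).

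Of the other hypoxia-related genes, PDK1, a kinase that inactivates pyruvate dehydrogenase, was at 40.1, 43.5, 43.8 and 42.2 CPM with PFBA and 32.4, 33.97, 32.9 and 32.5 CPM with PFHxA (log2 fold change -0.37, SE 0.05, adjusted p = 0.00136), but lost its call after trend removal (-0.23, adjusted p = 0.104). HIF1A, the oxygen-regulated transcription factor itself, fell by 0.25 in log2 (adjusted p = 0.00364), and its value with the trend removed was -0.03. The collagen hydroxylase P4HA1 fell as well (log2 fold change -0.33, SE 0.06, adjusted p = 0.00429; trend removed -0.18, adjusted p = 0.107). EGLN1, the oxygen sensor PHD2, fell by 0.15 (adjusted p = 0.0411) and lost its call without PFBA a, PFBA b, PFBA c, PFBA d, control a, control b, PFHxA a, PFHxA b or PFHxA c (adjusted p up to 0.134). HK2, a hexokinase, was called only with the trend removed (-0.18, adjusted p = 0.023; before removal log2 fold change -0.11, SE 0.04, adjusted p = 0.117). In the controls SLC2A1 was at 96.2, 96.3, 109 and 75.3 CPM and BNIP3 at 55.8, 58.3, 60.7 and 73.3 CPM in libraries a to d, a wider range than with either acid.

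The promoters of these 2 genes are shown because ACGTG, which is in capitals, is a form of the core letters that HIF1A binds. The other form, GCGTG, was not searched. They are RefSeq windows on GRCh38.p14, in the direction of transcription, from 250 bases before to 50 after a RefSeq start site of the gene. For BNIP3 the window is at chr10:131981874-131982173 (minus strand) and for SLC2A1 at chr1:42958819-42959118 (minus strand). In both genes that start site lies inside the gene coordinates given above, and the SLC2A1 window lies wholly inside them.
BNIP3: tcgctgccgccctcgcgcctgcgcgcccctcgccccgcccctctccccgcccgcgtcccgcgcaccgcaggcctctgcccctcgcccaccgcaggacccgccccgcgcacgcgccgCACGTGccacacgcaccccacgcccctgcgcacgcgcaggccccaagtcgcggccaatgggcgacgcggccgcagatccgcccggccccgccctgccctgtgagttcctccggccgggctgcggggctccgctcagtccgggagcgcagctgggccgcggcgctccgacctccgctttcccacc
SLC2A1: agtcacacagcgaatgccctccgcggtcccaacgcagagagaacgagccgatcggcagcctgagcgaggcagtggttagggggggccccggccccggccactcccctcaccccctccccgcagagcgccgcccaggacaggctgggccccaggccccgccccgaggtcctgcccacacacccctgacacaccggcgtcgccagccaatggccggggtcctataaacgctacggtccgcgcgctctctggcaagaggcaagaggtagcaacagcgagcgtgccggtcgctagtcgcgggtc
The BNIP3 window has 2 matches, 1 on each strand, which overlap in a palindrome. The SLC2A1 window has none, which says only that ACGTG is not in this window. As printed, it does hold GCGTG. Searched on both strands, ACGTG was found in 21.6% of 27305 promoters, and in 26.4% of the 11196 tested genes that have a promoter in the table. Of the 33 hypoxia and glycolysis genes with a promoter, 14 held it, and of the 7 lower ones 3 did (BNIP3, EGLN1 and P4HA1).

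Among cytosolic and mitochondrial chaperones, HSP90AA1 was lower with PFHxA in both fits. Of 24 heat shock genes, 6 were lower (HSP90AA1, HSPH1, HSPD1, CHORDC1, DNAJA1 and HSPA9) and 1 was higher, against 7.07% and 3.84% of all genes. The higher one was BAG3 (log2 fold change 0.20, SE 0.05, adjusted p = 0.0245; trend removed 0.11, adjusted p = 0.359; up to 0.0722 without PFBA c, PFBA d or PFHxA b). HSP90AA1, the inducible cytosolic HSP90 (chromosome 14, 102080738 to 102139699), was at 1424, 1353, 1388 and 1406 CPM with PFBA and 1238, 1020.1, 1140.4 and 1118 CPM with PFHxA, without overlap (log2 fold change -0.30, SE 0.05, adjusted p = 0.00412; trend removed -0.26, adjusted p = 0.0337). HSPH1, a nucleotide exchange factor of HSP70, fell by 0.22 (adjusted p = 0.0069), and the mitochondrial chaperonin HSPD1 fell by 0.23 (adjusted p = 0.00911), neither of them with the trend removed (adjusted p = 0.433 and 0.153). DNAJA1, an HSP70 co-chaperone, was at 350.2, 319, 311 and 334 CPM with PFBA and 307, 286, 279 and 284 CPM with PFHxA (log2 fold change -0.19, SE 0.04, adjusted p = 0.0165; trend removed -0.05, adjusted p = 0.665), and lost its call without PFBA a, PFHxA b, PFHxA c or PFHxA d (adjusted p up to 0.0591). HSPA6, a strictly inducible HSP70 outside the list (chromosome 1, 161524540 to 161526910), was at 4.24, 3.24, 3.42 and 4.63 CPM with PFBA and 2.24, 2.22, 2.29 and 2.77 CPM with PFHxA (log2 fold change -0.70, SE 0.16, adjusted p = 0.0159; trend removed -0.79, adjusted p = 0.0494). Its controls, at 2.23 ± 0.411 CPM, matched PFHxA rather than PFBA, its call was lost without PFBA d or PFHxA b (adjusted p up to 0.0534), and its reads can be shared with a near-identical pseudogene.

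In the endoplasmic reticulum, 4 of 24 stress genes were lower, against 7.07% of all genes, and none higher. HSP90B1, the HSP90 of that compartment, was at 1648, 1551, 1597 and 1711 CPM with PFBA and 1388, 1191, 1183 and 1138 CPM with PFHxA (log2 fold change -0.41, SE 0.06, adjusted p = 0.00185; trend removed -0.27, adjusted p = 0.0206). All PFHxA libraries were below all PFBA libraries, and PFHxA a was the nearest to them. The co-chaperone DNAJC3 fell by 0.25 (adjusted p = 0.00463), and the stress sensors EIF2AK3 (PERK) and ATF6 by 0.24 and 0.14 (adjusted p = 0.0204 and 0.0308), all 3 with an adjusted p over 0.05 once the trend was removed. The list had 2 lower members without PFBA a, PFBA c or PFHxA c. EIF2AK3 lost its call without PFBA a, PFBA c or PFHxA c, and ATF6 without PFBA a, c or d or any 1 of the PFHxA libraries.

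Windows of the inducible HSPA6 and of DNAJA1 are shown for the letters GAANNTTC, a pair of the inverted units that heat shock factors bind, in capitals. Both genes lie on the plus strand, HSPA6 at chr1:161524290-161524589 and DNAJA1 at chr9:33025023-33025322.
HSPA6: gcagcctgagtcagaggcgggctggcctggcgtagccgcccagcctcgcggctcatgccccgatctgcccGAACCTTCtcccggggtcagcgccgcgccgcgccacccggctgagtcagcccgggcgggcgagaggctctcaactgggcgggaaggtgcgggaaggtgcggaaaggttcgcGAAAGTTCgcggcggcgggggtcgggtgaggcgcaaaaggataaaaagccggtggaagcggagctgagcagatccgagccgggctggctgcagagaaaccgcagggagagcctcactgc
DNAJA1: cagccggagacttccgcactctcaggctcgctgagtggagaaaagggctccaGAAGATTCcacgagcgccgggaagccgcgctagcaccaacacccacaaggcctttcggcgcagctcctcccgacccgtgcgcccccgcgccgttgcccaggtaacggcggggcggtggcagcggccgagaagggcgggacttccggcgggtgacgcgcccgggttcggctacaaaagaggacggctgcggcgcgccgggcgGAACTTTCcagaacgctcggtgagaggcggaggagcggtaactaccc
Each window holds 2 matches, counted on both strands. Over all 27305 promoters 6.87% held at least 1, over tested genes 4.70%, and in the heat shock list 8 of the 22 genes with a promoter did. Of the 6 lower members, DNAJA1 and CHORDC1 held one.

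Metal-response genes were lower in 3 of 8 tested, against 7.07% of all genes. MT1F, a metallothionein that binds zinc and copper (chromosome 16, 56657694 to 56660698), showed the largest fitted fall of all named genes, at 2.28, 1.08, 1.25 and 1.53 CPM with PFBA and 0.328, 0.475, 0.223 and 0.544 CPM with PFHxA (log2 fold change -1.94, SE 0.31, adjusted p = 0.00278; trend removed -2.03, adjusted p = 0.0139). The controls, at 0.632 ± 0.132 CPM, were all below the lowest PFBA library. MT1F has close paralogs, so that its few reads may be shared with them. MT2A, the most widely expressed metallothionein, was not called and overlapped, at 19.3, 14.3, 16.2 and 19.2 CPM with PFBA and 17.4, 14.9, 14.2 and 13.8 CPM with PFHxA (95% interval of the log2 difference -0.43 to 0.04). The zinc importer SLC39A10 fell by 0.38 (adjusted p = 0.00252), and the zinc exporter SLC30A1 fell by 0.12 (adjusted p = 0.0354). With the trend removed neither was called, and the sign of SLC30A1 turned (0.07). SLC30A1 lost its call without PFBA a, PFBA c, PFBA d, control b, PFHxA a, PFHxA b or PFHxA c (adjusted p up to 0.122).

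**Figure D4:**
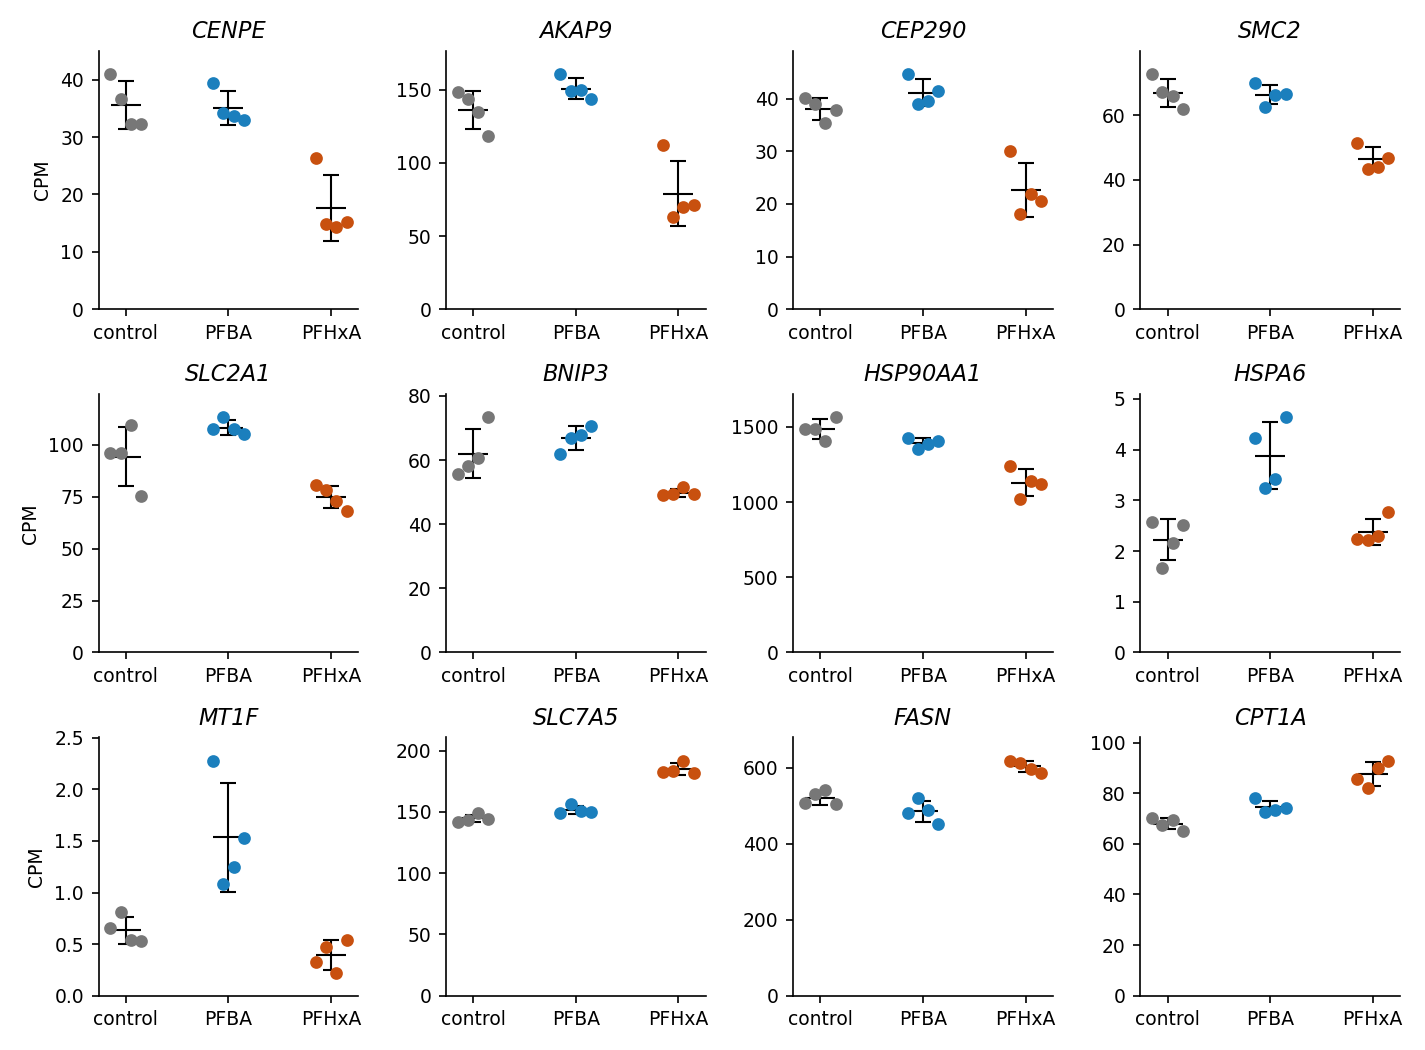
Levels in CPM of 12 genes in each library (points, libraries a to d from left to right) with the mean ± SD of 4; every axis starts at 0. The PFHxA points lie apart from the PFBA points in all 12, lower in CENPE and 8 others and higher in SLC7A5, FASN and CPT1A.

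In fatty acid synthesis 4 of 23 genes were higher and none lower, against 3.84% higher over all genes, and 1 was higher with the trend removed. Without control d the higher ones numbered 7. FASN, the fatty acid synthase (chromosome 17, 82078333 to 82098332), was at 479.8, 519.8, 489 and 453 CPM in PFBA a to d and 618, 612, 595 and 587 CPM in PFHxA a to d (log2 fold change 0.31, SE 0.04, adjusted p = 0.00182), and kept its call after trend removal (0.16, adjusted p = 0.0206). SREBF1, the transcription factor that drives lipid synthesis, rose from 74.9 ± 4.37 to 89.8 ± 2.17 CPM (log2 fold change 0.26, SE 0.05, adjusted p = 0.00507), as did DGAT1, which makes triglyceride (log2 fold change 0.27, SE 0.06, adjusted p = 0.0113), and ACLY, which supplies cytosolic acetyl-CoA (log2 fold change 0.19, SE 0.04, adjusted p = 0.0123). None of the last 3 kept its call after trend removal (adjusted p = 0.243, 0.288 and 0.151). In cholesterol synthesis and uptake 5 of 28 were higher and none lower, none of them called with the trend removed, with 1 left without PFBA c, PFBA d or PFHxA b, 2 without PFHxA c or d and 3 without PFBA a. FDPS, which makes farnesyl diphosphate, was at 91.1, 90.9, 94.3 and 86.2 CPM with PFBA and 105, 110.0, 106 and 103 CPM with PFHxA (log2 fold change 0.23, SE 0.04, adjusted p = 0.00349; trend removed 0.15, adjusted p = 0.0839). The rest were SREBF2, TM7SF2, NPC1 and MVD (0.19, 0.28, 0.22 and 0.22), whose calls each fell away without at least 5 of the libraries in turn.

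Fatty acid oxidation and PPAR target genes showed no common direction. Of 26 tested, 2 were higher and 4 lower, against 3.84% and 7.07% of all genes, with a median log2 fold change of -0.05. CPT1A, which commits long-chain fatty acids to mitochondrial oxidation (chromosome 11, 68754620 to 68844410), was at 77.9, 72.6, 73.2 and 74.1 CPM with PFBA and 85.7, 82.2, 89.9 and 92.8 CPM with PFHxA (log2 fold change 0.24, SE 0.05, adjusted p = 0.00729; trend removed 0.17, adjusted p = 0.0891). The controls held 67.99 ± 2.32 CPM (SD, n = 4). CPT1B, its muscle form, which shares reads with a readthrough from CHKB, was low, at 2.004, 1.78, 0.674 and 2.61 CPM with PFBA and 3.39, 3.96, 3.24 and 3.31 CPM with PFHxA (log2 fold change 0.97, SE 0.27, adjusted p = 0.0364; trend removed 0.88, adjusted p = 0.162), and lost its call without PFBA a, PFBA b, PFHxA a, PFHxA b, PFHxA c or PFHxA d (adjusted p up to 0.0968). ACADM, the medium-chain acyl-CoA dehydrogenase, fell from 96.2 ± 5.51 to 76.3 ± 8.16 CPM (log2 fold change -0.34, SE 0.07, adjusted p = 0.0069; trend removed -0.18, adjusted p = 0.181). ACSL3, which activates fatty acids, fell by 0.30 (adjusted p = 0.00324; trend removed -0.11, adjusted p = 0.251). ETFDH and HADHB fell by 0.20 and 0.14 (adjusted p = 0.0328 and 0.0328), with calls lost without 5 and 6 of the libraries in turn. CPT2, the inner-membrane partner of CPT1A, was called only with the trend removed (0.29, adjusted p = 0.0103).

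The PPAR targets PDK4, PLIN2 and ANGPTL4 were not called between the acids. PDK4 was at 18.6, 17.3, 20.2 and 20.1 CPM with PFBA and 19.2, 18.3, 18.2 and 17.3 CPM with PFHxA, overlapping (95% interval of the log2 difference -0.20 to 0.08). PLIN2, which coats lipid droplets, was at 8.06, 9.77, 7.99 and 7.44 CPM with PFBA and 7.27, 6.498, 6.59 and 6.08 CPM with PFHxA (-0.57 to -0.09; adjusted p = 0.0688). Its PFHxA libraries were all lower, but the difference missed the threshold. ANGPTL4 was near 1.53 CPM with PFBA and 1.24 CPM with PFHxA (-0.74 to 0.16). These intervals exclude a 2-fold difference for each of the 3 genes.

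Of 23 nuclear receptors, PPARD and NR4A1 were higher and none was lower, against 3.84% and 7.07% of all genes. PPARD rose from 96.02 ± 3.42 to 110.4 ± 3.28 CPM (log2 fold change 0.20, SE 0.05, adjusted p = 0.0228; trend removed 0.09, adjusted p = 0.441), and its call was lost without PFBA c, PFBA d, PFHxA b or PFHxA c (adjusted p up to 0.0695). NR4A1, also an immediate early gene, overlapped between the acids (log2 fold change 0.34, SE 0.09, adjusted p = 0.0326; trend removed 0.22, adjusted p = 0.261) and lost its call without PFBA a, PFBA c, PFBA d, PFHxA a or PFHxA b (adjusted p up to 0.0948). PPARA was not called, and 1 library set its value: it was at 8.701, 12.9, 11.3 and 11.8 CPM with PFBA and at 9.23, 56.6, 10.3 and 10.3 CPM in PFHxA a to d. Without PFHxA b its log2 fold change was -0.16, against 0.95 with all libraries. PPARG was under 1 CPM in all 8 libraries, with an interval of -0.55 to 0.67.

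Of 17 organic anion and fatty acid carriers, 1 was higher and 2 were lower, against 3.84% and 7.07% of all genes. SLCO1A2, an organic anion uptake carrier, was at 23.9, 23.3, 23.3 and 22.2 CPM with PFBA and 19.99, 17.9, 19.9 and 19.7 CPM with PFHxA (log2 fold change -0.26, SE 0.05, adjusted p = 0.0102; trend removed -0.10, adjusted p = 0.431). The fatty acid transporter SLC27A4 rose and the monocarboxylate transporter SLC16A1 fell (0.19 and -0.23 in log2), both with calls lost in at least 7 of the 12 fits that left out a library. Among 24 xenobiotic enzymes, the glutathione transferase GSTP1 (log2 fold change 0.16, SE 0.04, adjusted p = 0.0168; trend removed 0.07, adjusted p = 0.452) and the cytochrome P450 reductase POR (log2 fold change 0.25, SE 0.06, adjusted p = 0.0225; trend removed 0.15, adjusted p = 0.261) were higher, and neither call held without PFBA c, PFHxA b or PFHxA c (adjusted p up to 0.0558 and 0.0708). CYP1A1 had too few counts to be tested.

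Stress-response genes did not move as a block. Of 33 tested genes of the integrated stress response, 5 were higher and 4 lower, against 3.84% and 7.07% of all genes. SLC7A5, the large neutral amino acid transporter LAT1 (chromosome 16, 87830023 to 87869488), was at 149, 156, 151 and 149.7 CPM in PFBA a to d and at 183, 183, 192 and 182 CPM in PFHxA a to d, far apart for the spread (log2 fold change 0.29, SE 0.03, adjusted p = 0.00116; trend removed 0.17, adjusted p = 0.0242). The arginine transporter SLC7A1 rose by 0.17 (adjusted p = 0.016; 0.0515 at most, without PFBA c or PFHxA b), and the pseudokinase TRIB3 by 0.21 (adjusted p = 0.0222; up to 0.0698 without PFBA a, PFBA c, PFHxA b or PFHxA d). XPOT, which exports tRNA from the nucleus, fell by 0.17 (adjusted p = 0.00754; trend removed -0.04, adjusted p = 0.595). The stress cytokine GDF15 was at 123, 137, 120.3 and 131 CPM with PFBA and 143, 144, 139 and 138 CPM with PFHxA, without overlap but with an adjusted p of 0.0652. The higher members of the list numbered 1 without PFBA c or PFHxA b and 3 without PFBA a, PFBA d or PFHxA d. The lower ones numbered 1 without PFBA a, PFBA d, PFHxA b, c or d, and 2 without PFBA c, control b or control c.

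Of 25 NRF2 targets, 2 enzymes of the pentose phosphate pathway were higher, PGD (log2 fold change 0.15, SE 0.03, adjusted p = 0.0115) and TKT (log2 fold change 0.18, SE 0.05, adjusted p = 0.0239), and the aldo-keto reductase AKR1C1 was lower (log2 fold change -0.38, SE 0.09, adjusted p = 0.0206). None was called after trend removal, with log2 fold changes of 0.10, 0.06 and -0.28. TKT lost its call without PFBA a, PFBA c or PFHxA c, and AKR1C1 without PFBA a, PFBA c, PFHxA b or PFHxA d (adjusted p up to 0.0788 and 0.0667). The sentinel gene NQO1 was not called (95% interval 0.02 to 0.26; adjusted p = 0.119).

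All 13 protein-coding genes of the mitochondrial genome were fitted higher with PFHxA, with a median log2 fold change of 0.25, and none was called. Without control d 10 of the 13 were called higher, and without control a 1 was. With the trend removed the median was 0.31 and again none was called. MT-ND4, a complex I subunit, was at 10847, 10113, 10671 and 10345 CPM with PFBA and 11455, 13065, 12834 and 12835 CPM with PFHxA (95% interval 0.05 to 0.46; adjusted p = 0.0979), while control d held 7521 CPM. Of 76 nuclear genes of the respiratory chain, 3 were higher and 1 lower, and without control d 6 were higher. UQCRC1, a core subunit of complex III, rose from 286 ± 7.12 to 327 ± 8.82 CPM (log2 fold change 0.19, SE 0.04, adjusted p = 0.00878), and NDUFA5, a complex I subunit of low GC content, fell from 51.3 ± 4.55 to 34.2 ± 2.99 CPM (log2 fold change -0.58, SE 0.11, adjusted p = 0.00481). Neither kept its call after trend removal (adjusted p = 0.155 and 0.137). Of 75 cytosolic ribosomal protein genes, RPL11 (log2 fold change -0.24, SE 0.06, adjusted p = 0.0245; trend removed -0.22, adjusted p = 0.122) and RPL23A (log2 fold change -0.20, SE 0.05, adjusted p = 0.0246; trend removed -0.22, adjusted p = 0.0608) were lower and none higher. Their calls were lost without PFBA b, PFBA d, PFHxA c or PFHxA d for RPL11, and without PFBA d, PFHxA b or PFHxA c for RPL23A (adjusted p up to 0.077 and 0.0779).

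Of 27 basement membrane genes 6 were higher with PFHxA as fitted and none was lower, against 3.84% higher over all genes, and none kept its call after trend removal. HSPG2 (perlecan, a heparan sulfate proteoglycan) was at 285, 327, 296 and 278 CPM with PFBA and 392, 376, 374 and 365 CPM with PFHxA (log2 fold change 0.35, SE 0.07, adjusted p = 0.00885; trend removed 0.18, adjusted p = 0.0705). AGRN (agrin) rose from 248 ± 12.03 to 291 ± 3.27 CPM (log2 fold change 0.23, SE 0.04, adjusted p = 0.0052; trend removed 0.07, adjusted p = 0.399), and LAMA5, the alpha chain of laminin-511, by 0.21 (adjusted p = 0.00845). The controls held 259 ± 27.97 CPM of HSPG2. Without PFBA a or without PFBA c the list had 3 higher members. DAG1 (dystroglycan), which anchors these proteins, was not called and split its libraries, at 217, 223, 31.7 and 58.2 CPM in PFBA a to d and 35.4, 33.4, 251 and 39.1 CPM in PFHxA a to d.

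Of 29 Notch genes 3 were higher and 3 lower, with none called once the trend was removed. The lower ones numbered 0 without PFBA a or PFHxA b and 1 without PFBA b, c or d or PFHxA c or d, and the higher ones 6 without control d. The receptors NOTCH1 (590.0, 658, 592 and 572 CPM with PFBA and 744, 729.7, 705 and 698 CPM with PFHxA; log2 fold change 0.25, SE 0.06, adjusted p = 0.0115; trend removed 0.11, adjusted p = 0.134) and NOTCH3 (log2 fold change 0.29, SE 0.06, adjusted p = 0.00667; trend removed 0.15, adjusted p = 0.137) were higher. The protease ADAM17 was lower (log2 fold change -0.19, SE 0.04, adjusted p = 0.016; trend removed -0.01, adjusted p = 0.916; up to 0.0587 without PFBA a, PFBA d, PFHxA b or PFHxA c). Among 29 junction genes, NECTIN2 (log2 fold change 0.28, SE 0.05, adjusted p = 0.00348; trend removed 0.19, adjusted p = 0.107) and JUP, plakoglobin (log2 fold change 0.22, SE 0.04, adjusted p = 0.00434; trend removed 0.11, adjusted p = 0.136), were higher and none lower. Of 17 tested keratins, KRT5 rose from 1812 ± 44.1 to 2046 ± 79.8 CPM (log2 fold change 0.18, SE 0.04, adjusted p = 0.0117; trend removed 0.09, adjusted p = 0.288), and KRT7 by 0.18 (adjusted p = 0.0163; 0.0522 at most, without PFBA c or PFBA d). KRT18 was not called (95% interval -0.02 to 0.30). No integrin among 18 tested was called.

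The labelled cell type was checked on levels scaled by length, as CPM per kilobase of the longest transcript. The epithelial keratins KRT5 (693 to 826 over the 8 libraries) and KRT8 (104 to 122) and the surface protein EPCAM (21.6 to 26.02) were present, while E-cadherin (CDH1) was at 1.604 to 2.58 and the basal cell factor TP63 at 0.27001 to 0.504. The club cell gene SCGB1A1 had 0 counts in all 12 libraries, which allows up to 3 counts in each. None of 20 immune cell markers reached a median of 1 CPM per kilobase, and their summed level was 2.41 to 3.77 with PFBA and 1.83 to 3.54 with PFHxA. Endothelial markers summed to 27.3 to 29.2 with PFBA and 26.7 to 28.9 with PFHxA. Mesenchymal markers, led by S100A4, summed to 675 to 990 with PFBA and 887 to 1007 with PFHxA. Vimentin (VIM) was at 235 to 323 with PFBA and 232 to 246 with PFHxA. Olfactory and neural markers summed to 72.4 to 82.3 and 69.1 to 74.7. For comparison, epithelial junction genes summed to 501 to 552 and 531 to 564, and keratins to 1990 to 2118 and 2211 to 2295. Ciliated cell markers, led by the widely expressed tubulin TUBB4B, summed to 219.6 to 239.9 with PFBA and 254 to 265 with PFHxA, and 2 of 20 tested (TUBB4B and TUBA1A) were higher. Secretory markers summed to 54.2 to 117 with PFBA and 123 to 125 with PFHxA. They were led by FOXA2, which was at 168, 20.02, 85.2 and 168 CPM in PFBA a to d and 192, 189, 184 and 186 CPM in PFHxA a to d. The part of these marker levels in the other results was not tested. No tested secretory, mesenchymal, immune, endothelial or olfactory and neural marker was called between the acids. FN1 (fibronectin), on the mesenchymal list, was called only with the trend removed (0.24, adjusted p = 0.0439).

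Interferon-stimulated genes were lower in 6 and higher in 2 of 41 tested, against 7.07% and 3.84% of all genes. None kept its call after trend removal. SAMD9, an antiviral factor, was at 27.97, 25.4, 26.6 and 28.6 CPM with PFBA and 22.1, 14.001, 15.2 and 16.9 CPM with PFHxA (log2 fold change -0.67, SE 0.12, adjusted p = 0.00409; trend removed -0.46, adjusted p = 0.0608). IFIT5 and IFIT3 fell by 0.26 and 0.23 (adjusted p = 0.00628 and 0.0103). IFIT1 fell by 0.19 (adjusted p = 0.046), a call lost in 9 of 12 fits that left out a library (adjusted p up to 0.135). ISG15 and MX1 were the higher ones (0.33 and 0.16), and both calls were lost without PFBA c, PFHxA b, PFHxA c or PFHxA d. The lower members numbered 3 without PFBA c and 3 without PFHxA c. Of 33 inflammatory genes, the chemokine CCL20 was at 14.99, 15.2, 14.6 and 17.2 CPM with PFBA and 12.6, 11.3, 9.22 and 10.5 CPM with PFHxA (log2 fold change -0.51, SE 0.09, adjusted p = 0.00448; trend removed -0.24, adjusted p = 0.211). The cytokine IL18 was lower too (log2 fold change -0.23, SE 0.05, adjusted p = 0.0137; trend removed -0.03, adjusted p = 0.861), and the growth factor CSF1 higher (log2 fold change 0.17, SE 0.04, adjusted p = 0.0197; trend removed 0.06, adjusted p = 0.488; up to 0.06 without PFBA c, PFBA d or PFHxA b).

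Of 32 immediate early genes 4 were higher and none lower, against 3.84% higher over all genes. Their number was 1 without PFBA a, c or d or PFHxA b and 2 without PFHxA a, c or d. They included JUND (log2 fold change 0.17, SE 0.04, adjusted p = 0.00878; trend removed 0.04, adjusted p = 0.668) and JUNB (log2 fold change 0.20, SE 0.05, adjusted p = 0.0323; trend removed 0.09, adjusted p = 0.471; up to 0.0954 without PFBA a, PFBA c, PFBA d, PFHxA b, PFHxA c or PFHxA d). JUN was not called (95% interval -0.01 to 0.22). Among 24 p53 targets, CDKN1A (the cell cycle inhibitor p21) was higher (log2 fold change 0.15, SE 0.04, adjusted p = 0.0207; trend removed 0.07, adjusted p = 0.522; up to 0.0646 without PFBA a, PFBA d, PFHxA b or PFHxA c) and the ribonucleotide reductase RRM2B lower (log2 fold change -0.22, SE 0.05, adjusted p = 0.00942; adjusted p with the trend removed 0.997). The death receptor FAS was lower with overlap (log2 fold change -0.47, SE 0.11, adjusted p = 0.0174; trend removed -0.27, adjusted p = 0.228; up to 0.0605 without PFBA a, PFBA c, PFBA d or PFHxA b). In the apoptosis list, XIAP, an inhibitor of caspases (chromosome X, 123859724 to 123913979), was at 52.3, 56.2, 15.9 and 84.4 CPM in PFBA a to d and 15.2, 16.7, 14.6 and 15.7 CPM in PFHxA a to d (log2 fold change -1.74, SE 0.39, adjusted p = 0.021; trend removed -1.58, adjusted p = 0.108). PFBA c held the level of all PFHxA and control libraries (control 15.8 ± 2.33 CPM), and the call was lost without PFBA a, PFBA d, PFHxA b, PFHxA c or PFHxA d (adjusted p up to 0.0615).

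Genes of chromatin, the nuclear pore and splicing went both ways as fitted. Of 43 chromatin regulators, 10 were higher and 4 lower, against 3.84% and 7.07% of all genes. The lower ones were the remodellers CHD1 (83.6, 81.7, 83.9 and 84.6 CPM with PFBA and 65.9, 53.9, 56.99 and 57.5 CPM with PFHxA; log2 fold change -0.51, SE 0.06, adjusted p = 0.00116) and ATRX (log2 fold change -0.55, SE 0.07, adjusted p = 0.00136), which kept their calls after trend removal (-0.33, adjusted p = 0.0115, and -0.37, adjusted p = 0.0182), and BAZ1A and BAZ2B (-0.41 and -0.38), which did not. Among the higher ones were the methyltransferase SETD1A (log2 fold change 0.27, SE 0.05, adjusted p = 0.00465) and SMARCA4 (0.22), neither with the trend removed. Without PFBA c the higher ones numbered 6.

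At the nuclear pore and in nuclear transport 9 of 32 genes were lower and 2 higher, against 7.07% and 3.84% of all genes. TPR, the filament of the nuclear basket, was at 376, 355, 344 and 337 CPM with PFBA and 287, 203, 217 and 229 CPM with PFHxA (log2 fold change -0.59, SE 0.11, adjusted p = 0.00573; trend removed -0.46, adjusted p = 0.0419). RANBP2, the cytoplasmic filament of the pore, fell from 186 ± 8.34 to 138 ± 11.4 CPM (log2 fold change -0.43, SE 0.06, adjusted p = 0.00204; trend removed -0.28, adjusted p = 0.016). The importin TNPO1 was lower as fitted (log2 fold change -0.22, SE 0.04, adjusted p = 0.00295) and not with the trend removed (-0.03, adjusted p = 0.757). Of 43 splicing factors 12 were lower and 3 higher, against 7.07% and 3.84% of all genes. The lower ones numbered 3 to 12 when single libraries were left out. They numbered 3 without PFHxA d, 5 without PFHxA b or c, 6 without PFBA a and 7 without PFBA c. HNRNPA3 fell by 0.21 (adjusted p = 0.0089) and HNRNPUL1 rose by 0.23 (adjusted p = 0.00582). HNRNPR fell by 0.20 (adjusted p = 0.0133; 0.0513 without PFHxA b), and its sign turned with the trend removed (0.03). HNRNPA0 was the only member called in both fits (log2 fold change 0.13, SE 0.03, adjusted p = 0.0243; trend removed 0.25, adjusted p = 0.00959), and as fitted it lost its call without PFBA a, PFBA d, PFHxA b, PFHxA c or PFHxA d.

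Zinc finger genes of the ZNF family were called in both directions. On chromosome 19, where they lie in clusters, 21 of 225 were lower and 1 higher, and elsewhere 30 of 235 were lower and 6 higher. The shares over all tested genes were 7.07% lower and 3.84% higher. Median transcript GC content was 42.3% for those on chromosome 19 and 45.2% for those elsewhere. With the trend removed 1 and 5 were lower, and none was higher, against 0.658% lower over all genes. The median log2 fold change was -0.15 on chromosome 19 and -0.09 elsewhere, and -0.08 and -0.04 with the trend removed. Of 39 lysosome and autophagy genes 6 were higher and none lower, led by the transcription factor TFE3 (log2 fold change 0.20, SE 0.04, adjusted p = 0.00582), and none kept its call after trend removal. Their number was 2 without PFBA d or PFHxA b and 3 without PFBA a, PFHxA c or PFHxA d. SNHG1, a host gene of small nucleolar RNAs, was at 43.5, 55.8, 48.9 and 50.97 CPM with PFBA and 33.4, 35.6, 31.5 and 34.6 CPM with PFHxA (log2 fold change -0.56, SE 0.07, adjusted p = 0.00116; trend removed -0.46, adjusted p = 0.0139), the only called member of 23 abundant non-coding RNAs.

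The controls lay with PFBA for most of the genes that separated the acids. They enter the comparison of the acids through the gene filter, the scaling, the trend removal and the shared estimate of spread. Their position is given as a description. Of the 1806 called genes, 1639 (90.8%) had a control mean log2 CPM nearer to PFBA than to PFHxA. Of these, 967 lay between the acids and 672 beyond PFBA, on the side away from PFHxA. The remaining 167 were nearer to PFHxA, 13 of them beyond it. On a scale from 0 at PFBA to 1 at PFHxA the median control position was 0.0905. It was 0.0867 for the 125 genes called in both fits, 116 of them nearer to PFBA. All these positions use levels with the trend still in them, also for those 125 genes. The mean GC slope was -0.0405 in the controls and -0.0438 with PFBA, and the part of the trend in these positions was not tested. Tested against the controls, with the trend not removed, 1 gene was called with PFBA (0.00604% of those tested) and 2466 with PFHxA (14.9%). These 2 comparisons share their control libraries.

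**Figure D5:**
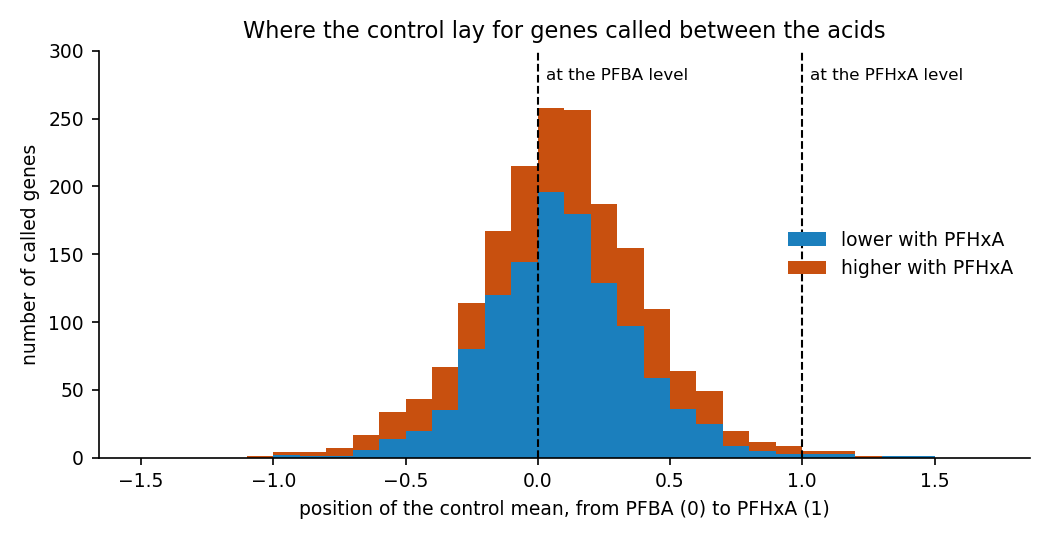
Number of genes called between the acids, by the position of the control mean log2 CPM on a scale from the PFBA mean (0) to the PFHxA mean (1); colours give the direction with PFHxA, stacked. Most genes lie near 0, with a median of 0.0905.

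For CASP2, HSPA6 and MT1F the control mean was nearer to PFHxA, and neither acid was called against the controls. For CASP2 the log2 fold change against control was -0.65 with PFBA (adjusted p = 0.344) and 0.24 with PFHxA (adjusted p = 0.471). For HSPA6 it was 0.80 with PFBA (adjusted p = 0.281) and 0.10 with PFHxA (adjusted p = 0.772). For MT1F it was 1.27 with PFBA (adjusted p = 0.297) and -0.67 with PFHxA (adjusted p = 0.24). These genes were singled out after their values were seen.

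For the 14748 genes that were not called, the 95% interval of the difference lay within 1.5-fold in 10144 and within 1.2-fold in 4158. These are 68.8% and 28.2% of the genes not called. A missed threshold does not show that the acids acted alike, and for the remaining genes the interval reaches past 1.5-fold.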

How the data were processed

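RNA was sequenced from RPMI2650 cells in 3 groups of 4 libraries. The authors deposited 1 table with a raw read count per gene and library, and per the submitters' processing notes reads were aligned with HISAT2 2.0.4 to GRCh38 (hg38). For the counting tool, the annotation and the strand setting the sources used here name nothing. The 12 count columns were mapped to groups by name, and 12 further value columns were not used. The deposited counts were filtered (edgeR 4.0.16 defaults, minimum count 10, minimum total 15), scaled by TMM and fitted once over 12 libraries with edgeR's quasi-likelihood test in R 4.3.3 (limma 3.58.1), adjusted by Benjamini-Hochberg over 16554 of 50868 genes. CPM use the TMM-scaled totals. Cell type markers were checked as CPM per kilobase of the longest transcript. For the trend-removed fit, natural splines of transcript GC content and length (longest transcript, GENCODE 29) were fitted to each library's deviation from the gene means and entered as offsets. DESeq2 1.42.0, voom and other settings were alternatives. Python 3.11.15, pandas 2.3.3, numpy 2.4.6, scipy 1.17.1 and matplotlib 3.10.9 were used for the rest. The scripts were tested on simulated data. The members and gene lists were chosen with earlier results of these data known. Genes were named by rule: the 10 largest called rises and falls without overlap (mean of at least 1 CPM over the 8 libraries, no clone names, pseudogenes, small RNAs or unnamed loci), the 5 largest of each that were also called with the trend removed, the 3 smallest p-values of each list with at least 2 calls, and a set of genes named whatever their values. Each library was left out in turn. For single genes and lists this was done in the fit with the trend still in. A few genes of the lists and of the named set are counted but not reported here.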

Additional observations from a re-analysis of the deposited data

Results flagged for a closer look

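In 18 of the 272 groups of 4 libraries examined (6.62%), 1 library stood apart from the other 3. The gap was larger than the 95% critical value of Dixon's test, which about 1 in 20 groups of independent normal values pass by chance. Most groups were of called genes, and all came from the same libraries. The rate of 1 in 20 therefore need not hold for them. Among genes with a single low library, NDST1 was at 70.3 CPM in PFHxA a, SKI at 186.5 in PFHxA a, SLCO1A2 at 17.9 in PFHxA b and WRNIP1 at 106.9 in PFHxA d. RPL36A-HNRNPH2 was low at 10.1 CPM and TNPO1 at 360.1 CPM in PFBA b, and FRS2 was low at 22.6 CPM and POLE at 84.2 CPM in PFBA d. PFHxA a was the single high library for CENPE (26.3 CPM), AKAP9 (112 CPM), KIF20B (66.4 CPM), RBFA (25.4 CPM) and IFIT3 (40.4 CPM). PPARA was high in PFHxA b (56.6 CPM), SLC7A5 (191.7 CPM) and TKT (590.0 CPM) in PFHxA c, and HSPA6 in PFHxA d (2.77 CPM). The share of mitochondrial counts was low in PFHxA a, at 11.7%.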

How the results depend on the processing

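Removal of the trend left 146 calls (37 higher, 109 lower), 15 to 342 with single libraries left out, and 42 in such a fit of the 8 libraries alone. A minimum change of 1.5-fold left 0, 0 and 0. DESeq2 called 978 higher genes. Leaving out 1 library gave 1035 to 2187 calls, 294 to 849 higher and 731 to 1338 lower, with the total moved by over 1.5 times without PFBA a (1151), PFBA c (1143), PFBA d (1108), PFHxA b (1035) or PFHxA c (1179). The sign turned with the trend removed for SLC30A1 (0.065), HNRNPR (0.030) and PDK4 (0.11), for PPARA without PFHxA b (-0.16, up to 1.202 without PFHxA a), and for PPARG without PFBA b (-0.045), PFBA d (-0.0047) or PFHxA a (-0.074), up to 0.186 without PFHxA d. With the column letter as a replicate block 1838 genes were called, 1598 of them shared. Deviations of same-letter libraries correlated by 0.006 to 0.029, and 1 of 4 correlated best with its own letter, so that letters were treated as names only. The trend-removed fit without single libraries was chosen after seeing the data, as was that of 8 libraries. The cause of these shifts was not tested.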

Other observations

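Some genes differed between libraries of 1 group by more than 2-fold. Of 10268 genes of at least 10 CPM, 283 had a library more than 2-fold away from all 3 others of its group, 24 to 46 per library, and 93 did so in more than 1 library. In the 8 libraries of the acids there were 217 such genes, 3 of which were called between the acids, while 1716 of the 10268 genes were called. A library so far away widens the spread that the test sets a difference against. Few of these genes could therefore be called, and nothing is concluded from their number. PRKACB, a catalytic subunit of protein kinase A, was at 1208, 474, 1169 and 1208 CPM in PFBA a to d and 1017, 860.3, 404 and 891 CPM in PFHxA a to d. MSI2, an RNA-binding protein, was at 200.1, 492, 393 and 511 CPM in PFBA a to d and 195, 472, 502 and 503 CPM in PFHxA a to d. These genes were chosen after their values were seen.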
